A study of Mus musculus with 8 samples.

Results

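Local clusters of γ-H2AX peaks are places where several narrow peaks of phosphorylated histone H2AX lie within about 1 kb of each other. Clustered peaks were selected on the measured positions of the peaks themselves, as autosomal intervals of at most 500 bp whose centre had 2 or more other γ-H2AX centres within 1 kb on either side. There were 998 of them among 124947 γ-H2AX peaks (0.799%), and the remaining 123949 peaks served as the comparison. Chromatin immunoprecipitation with sequencing (ChIP-seq) had been done on mouse embryonic fibroblasts, primary connective tissue cells, of the C57BL/6 strain, taken at E15.5 and grown for 2 to 4 passages. The 3 peak lists used came from cells labelled Hmga2 wt, with 1 library each for H2AXS139ph, HMGA2 and ATM. No treatment of the cells is labelled. Clustered and other peaks came from the same γ-H2AX library and therefore share genotype, strain, stage and culture. The Hmga2 knockout libraries and the inputs were not analysed here.

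H2AX is a histone H2A variant whose C-terminal serine is phosphorylated by ATM and related kinases, most famously around DNA double-strand breaks, where the mark spreads over long stretches of chromatin. The modified histone, γ-H2AX, has also been mapped at genes in cells without induced damage. HMGA2 is an architectural protein that binds the minor groove of AT-rich DNA through its AT-hooks and is abundant in embryonic fibroblasts. According to its title, the study concerned transcription and γ-H2AX in connection with HMG proteins.

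Some clustered peaks reached into promoters, and the sequences of those windows are described here over their whole length. Of the start sites in the RefSeq table (GRCm38.p6, 250 bases before to 50 after each start), 14 autosomal windows were touched by a clustered peak, over 10 to 236 of their bases. They had a median GC content of 60% and a median of 19.5 CpG dinucleotides, against 53.7% and 12 in 1123 windows touched by another γ-H2AX peak only, and 53% and 7 in all 31363 autosomal windows. The GC box core GGGCGG, searched on both strands, stood in 6 of the 14 (42.9%, 95% Wilson interval 21.4 to 67.4), in 37.4% of windows touched by other γ-H2AX peaks and in 35.9% of all windows. The letters CCAAT, on either strand, stood in 6 of the 14, in 42.7% of windows touched by other peaks and in 37.3% of all windows; at their ends the motifs can share bases. Below are 5 of these windows, each 5′ to 3′ on the strand of its gene, with the bases inside the clustered peak in capitals. They were picked from the 14 for genes with several clustered peaks or with a well-known role, after the values had been seen.
Asb6: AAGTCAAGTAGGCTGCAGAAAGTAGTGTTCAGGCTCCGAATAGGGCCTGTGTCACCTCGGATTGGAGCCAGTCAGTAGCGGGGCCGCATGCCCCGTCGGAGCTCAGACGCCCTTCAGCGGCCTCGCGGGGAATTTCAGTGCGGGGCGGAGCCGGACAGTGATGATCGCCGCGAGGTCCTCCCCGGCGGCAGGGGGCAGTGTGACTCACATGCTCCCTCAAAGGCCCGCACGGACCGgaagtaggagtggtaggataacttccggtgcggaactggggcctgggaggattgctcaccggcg
Nme2: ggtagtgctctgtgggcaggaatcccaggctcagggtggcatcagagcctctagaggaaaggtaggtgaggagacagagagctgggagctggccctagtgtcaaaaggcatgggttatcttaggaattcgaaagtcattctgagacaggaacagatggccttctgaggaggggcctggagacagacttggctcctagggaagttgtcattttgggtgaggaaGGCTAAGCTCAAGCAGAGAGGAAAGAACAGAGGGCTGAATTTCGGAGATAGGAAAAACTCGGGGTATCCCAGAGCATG
Bloc1s2: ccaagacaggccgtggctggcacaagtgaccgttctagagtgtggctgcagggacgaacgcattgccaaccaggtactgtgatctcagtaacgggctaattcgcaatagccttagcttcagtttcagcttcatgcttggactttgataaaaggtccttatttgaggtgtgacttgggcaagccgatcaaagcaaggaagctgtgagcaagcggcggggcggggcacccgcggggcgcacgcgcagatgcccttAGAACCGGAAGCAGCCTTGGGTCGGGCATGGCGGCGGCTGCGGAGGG
P4htm: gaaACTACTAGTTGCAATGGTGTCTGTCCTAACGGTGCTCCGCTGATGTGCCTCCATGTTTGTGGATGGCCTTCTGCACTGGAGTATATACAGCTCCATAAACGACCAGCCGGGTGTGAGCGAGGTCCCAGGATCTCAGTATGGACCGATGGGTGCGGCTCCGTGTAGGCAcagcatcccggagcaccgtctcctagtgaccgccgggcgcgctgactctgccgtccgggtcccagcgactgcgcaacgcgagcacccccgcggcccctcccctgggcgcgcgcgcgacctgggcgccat
Rpl37: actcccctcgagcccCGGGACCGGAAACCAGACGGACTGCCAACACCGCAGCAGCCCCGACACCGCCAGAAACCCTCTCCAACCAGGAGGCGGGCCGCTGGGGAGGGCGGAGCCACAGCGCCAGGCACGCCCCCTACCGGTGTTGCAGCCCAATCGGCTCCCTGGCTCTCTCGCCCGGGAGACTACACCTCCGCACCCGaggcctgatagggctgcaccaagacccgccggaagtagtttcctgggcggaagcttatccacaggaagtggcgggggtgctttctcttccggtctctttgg
Asb6 encodes a SOCS-box protein that serves as a substrate adaptor of ubiquitin ligases, and its window (chr2:30828251-30828550, minus strand) had 236 of its 300 bases in the peak and 25 CpG. In Nme2, a nucleoside diphosphate kinase gene, 78 bases of chr11:93956207-93956506 (minus strand) were covered, and the window had 3 CpG, far fewer than that of Asb6. Bloc1s2, whose protein is a subunit of a complex in the biogenesis of lysosome-related organelles, had 47 bases of chr19:44146397-44146696 (minus strand) in the peak. P4htm encodes a transmembrane prolyl 4-hydroxylase, and 168 bases of chr9:108597563-108597862 (minus strand) were in the peak, with 28 CpG in the window. Rpl37, a gene for a protein of the large ribosomal subunit, had 184 covered bases of chr15:5116363-5116662 (plus strand) and 2 forward copies of GGGCGG. Of the 5 windows, 4 had 20 or more CpG, and Nme2 stood apart.

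Every peak in the lists carries a score from the authors' peak caller, equal to -10 × log10(p), and the lists begin at a score of 20. Clustered peaks scored close to the rest. Their scores went from 20.01 through a median of 24.1 to 72.22, against 20 through 23.6 to 670 in the other peaks, and 87.9% scored under 30, against 89.7%. Median widths were 169 bp in clustered and 168 bp in other peaks. Since 1 library gives no replicate, every share here describes these libraries, and the Wilson intervals cover counting error only. Peaks of a cluster are neighbours and not independent, so the intervals are too narrow. The libraries' depth is not given in the peak lists, and clusters and background shared with the input cannot be told apart without input values.

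Most clusters were small. Chaining clustered peaks with the centres within 1 kb of them gave 518 clusters, of which 459 held 3 peaks, 52 held 4 and 7 held 5. Together they contained 1620 γ-H2AX peaks, the 998 clustered ones and 622 flanking peaks. The flanking peaks had fewer than 2 neighbours of their own or were wider than 500 bp. In 276 clusters a single peak met the rule and in 211 clusters 3 peaks did. Among clustered peaks 941 had exactly 2 neighbours, 56 had 3 and 1 had 4. Clusters spanned 463 to 3512 bp, with a median of 1320.5 bp and quartiles of 1066 and 1624.75 bp. Adjacent centres in a cluster lay a median of 545 bp apart, and all adjacent γ-H2AX centres within 1 kb lay a median of 546.5 bp apart. Both sets end at 1 kb by the rule and the gaps in clusters are among all gaps, so these distances are a description only.

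**Figure D1:**
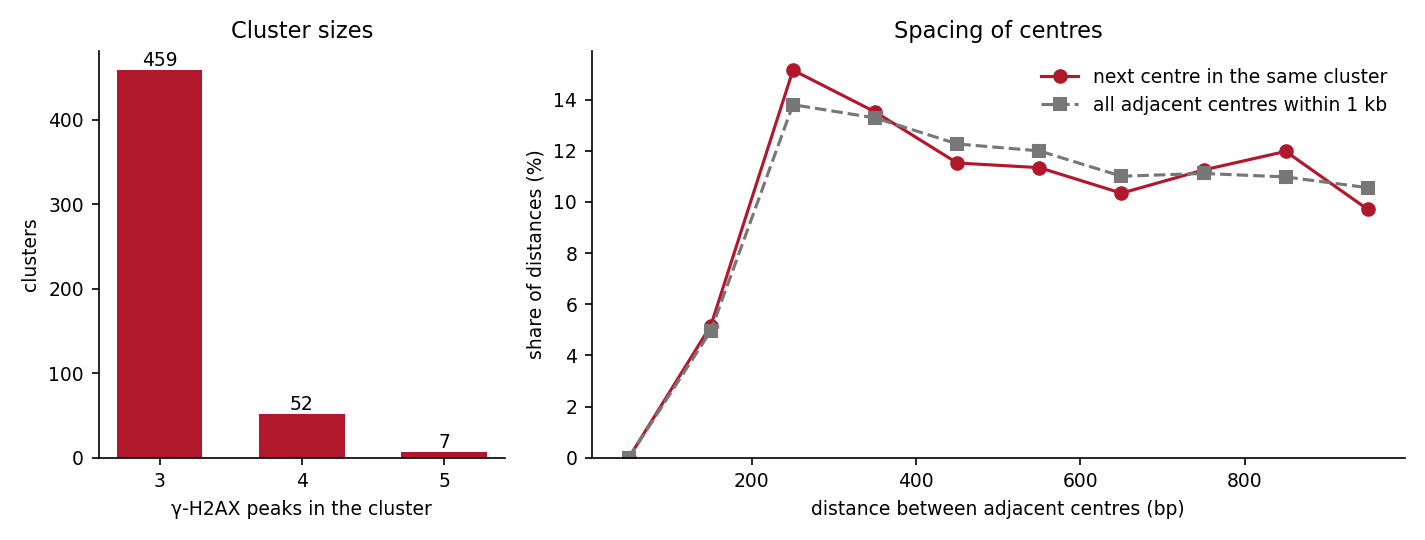
Left, number of clusters by the γ-H2AX peaks they hold: 459 of 3 peaks, 52 of 4 and 7 of 5. Right, distances between adjacent γ-H2AX centres in bins of 100 bp, as a percentage of the distances, for 1102 gaps inside clusters (circles) and all 7368 gaps within 1 kb (squares); the curves run close together and no gap is under 100 bp.

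The same rule was applied to the other lists for scale. It found 2016 of 152834 HMGA2 peaks (1.32%) and 437 of 119570 ATM peaks (0.365%), so that γ-H2AX peaks, at 0.799%, stood between them. The lists have the same order by number of peaks, with 124947 for γ-H2AX, and the shares were not adjusted for it. Clustered peaks made up between 0.545% of the narrow γ-H2AX peaks of chromosome 14 and 1.13% of those of chromosome 12. Surroundings were denser in γ-H2AX centres as well. For γ-H2AX the rule itself favours this, since it selected peaks by the density of centres in the same list. The γ-H2AX difference is therefore a description only. Between 2 and 50 kb from their centre, clustered peaks had a mean of 7.45 further γ-H2AX centres, against 5.64 around other peaks, with quartiles of 5 and 10 against 3 and 8. For HMGA2 centres the means were 6.76 and 6.30, with a median of 6 around both. For ATM centres the means were 5.19 and 4.81, with a median of 5 around both. Narrow autosomal peaks with exactly 1 neighbour had means of 6.65 HMGA2 and 5.08 ATM centres, close to those of clustered peaks.

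Clustered peaks lay in genes more often than the other peaks. Of 998 clustered peaks 673, or 67.4% (95% Wilson interval 64.5 to 70.3), touched an annotated gene, against 54.2% (53.9 to 54.5) of all other peaks. The share was graded with the number of neighbours, at 60.1% for narrow autosomal peaks with exactly 1 neighbour and 54.4% for those with none. The 57 peaks with 3 or 4 neighbours went the other way, at 52.6% (39.9 to 65.0). Protein-coding genes held 57.7% of clustered and 46.0% of other peaks, and long non-coding RNA genes held 11.4% and 9.29%. On 15 of 19 autosomes the gene share was higher in clustered peaks.

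Much of this gap was also present in the neighbourhood. Among 3564 other γ-H2AX peaks lying 2 to 50 kb from a clustered peak, 65.4% were in genes, and the difference of clustered peaks from these was 2.00 percentage points (95% interval -1.34 to 5.25). With only peaks of score 25 or more, the rule found 61 clustered peaks, and 54.1% of these were in genes, against 54.9% of the others. The difference was then -0.82 points (-13.2 to 11.1), an interval that covers both directions.

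Host genes of clustered peaks were shorter and the peaks sat nearer their starts. The protein-coding gene around a clustered peak had a median length of 90.3 kb (576 peaks), against 127 kb around other peaks. Where the strand was known, 135 of 446 clustered peaks (30.3%, 26.2 to 34.7) lay in the first 20% of the gene, against 23.1% of other peaks and 26.6% of peaks with 1 neighbour. In the stretch from 60% to 80% of the gene the clustered share was 11.9% (9.20 to 15.2), against 18.6% of other peaks.

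**Figure D2:**
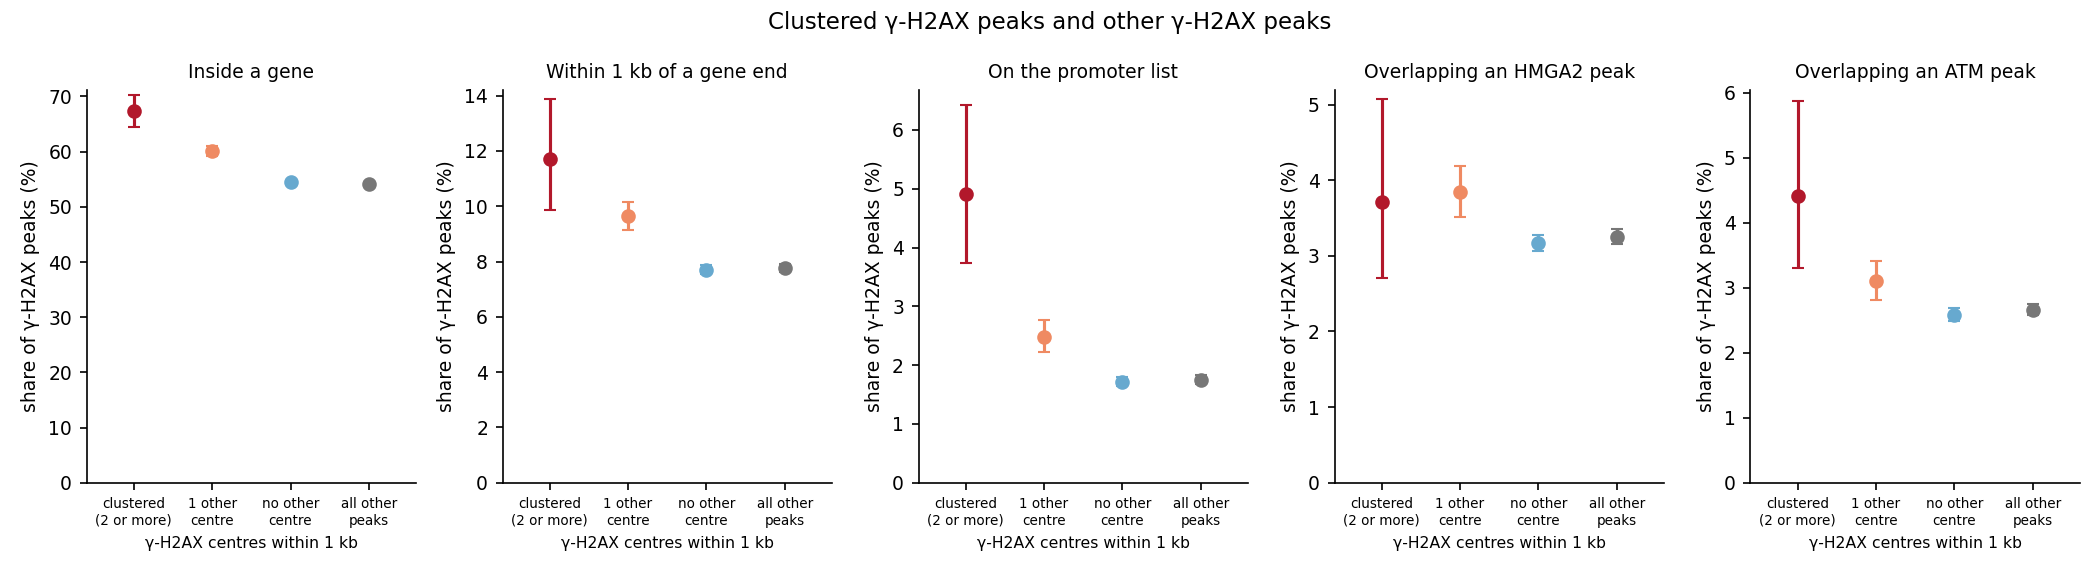
Share of γ-H2AX peaks, in percent with 95% Wilson intervals, that were inside a gene, within 1 kb of a gene end, on the authors' promoter list, or overlapping an HMGA2 or an ATM peak. Points stand for clustered peaks, narrow autosomal peaks with 1 or no other centre within 1 kb, and all other peaks; clustered peaks are highest in 4 panels, and for HMGA2 overlap the interval of 2.70 to 5.07% covers the 3.25% of all other peaks.

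Gene ends also held more of them. Within 1 kb of either annotated end of a gene lay 117 clustered peaks, or 11.7% (9.87 to 13.9), against 7.77% (7.62 to 7.92) of other peaks, 9.64% of peaks with 1 neighbour and 7.70% of peaks with none. At ends of protein-coding genes the shares were 8.42% and 4.33%. Against other peaks 2 to 50 kb away, at 9.65%, the difference was 2.07 points (-0.039 to 4.41). On 12 of 19 autosomes the share was higher in clustered peaks. Of the peaks with 3 or 4 neighbours, 2 of 57 (3.51%, 0.968 to 11.9) were at a gene end. Inside genes and away from the ends lay 59.7% of clustered and 49.1% of other peaks.

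Start sites, taken from the RefSeq promoter table with their strand, showed the same difference on both sides. Of 964 clustered peaks on chromosomes in that table, 66 had their centre within 1 kb of a start, or 6.85% (5.42 to 8.62), against 3.39% (3.29 to 3.50) of other peaks and 4.66% (4.30 to 5.04) of peaks with 1 neighbour. Upstream lay 34 of the 66 and downstream 32. Within 5 kb the shares were 18.8% of clustered and 12.7% of other peaks, and the median distance to a start was 26.6 kb and 37.6 kb. The table covers 79.9% of protein-coding genes, so peaks at other starts are counted as far from one. No start on chromosome 18 is in the table, and the 34 clustered peaks there were left out.

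**Figure D3:**
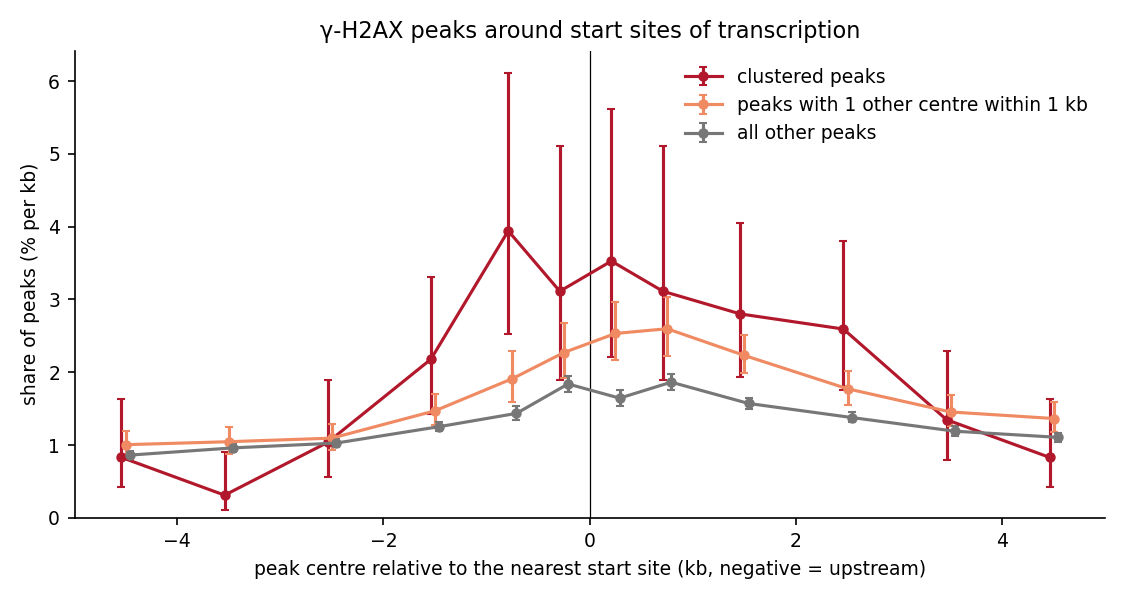
Share of γ-H2AX peaks per kb, in percent with 95% Wilson intervals, by distance of the peak centre from the nearest start site (negative is upstream), for 964 clustered peaks, peaks with 1 other centre within 1 kb and all other peaks. Clustered peaks reach 3.94% per kb at 500 to 1000 bp upstream, where all other peaks are at 1.44%, and beyond 3 kb they are at 0.31 to 1.35% per kb, against 0.86 to 1.19%.

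The authors' own list of γ-H2AX promoters held 49 clustered peaks, or 4.91% (3.73 to 6.43), against 1.75% (1.68 to 1.83) of other peaks and 2.48% of peaks with 1 neighbour. The rule behind that list is not given among the sources. It was made from the same γ-H2AX peaks, so it is no independent measure of them. With scores of 25 or more the clustered share was 1.64% of 61 peaks, against 2.04%. That difference was -0.40 points (-1.75 to 6.68), so 61 peaks are too few to tell its direction. None of the 998 clustered peaks touched a region of the authors' ATM promoter list, against 52 of the other peaks (0.042%). A count of 0 of 998 allows a share of up to 0.383% by the Wilson bound, so no difference was detectable.

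A clustered peak within 1 kb of an end was found at 60 of 21887 protein-coding genes (0.274%), where 23.3% had any γ-H2AX peak. Of the 60 genes 38 had 1 such peak, 4 had 2 and 18 had 3, and 36 had a peak on the promoter list. These genes were selected for γ-H2AX peaks near an end, and the list was made from the same peaks. No such share was computed for other genes with a γ-H2AX peak at an end, so promoter-list counts of genes are a description only. The 12 genes with most clustered peaks each had 3, in 10 clusters, and the 30 clustered peaks at these ends had scores of 20.52 to 41.94. Promoter-list peaks were found at 10 of these 12 genes, and 0 of the 30 peaks overlapped an HMGA2 or an ATM peak; with 3.71% and 4.41% of all clustered peaks overlapping them, 30 peaks are too few for this count to show a difference.

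The 12 genes have varied roles. At Bicd1, which encodes an adaptor of the dynein motor, peaks scored 22.14, 41.94 and 22.45 and their centres lay 162, 583 and 879 bp downstream of the start. Vamp3, a vesicle SNARE gene, shared its cluster with the predicted gene Gm38529, with scores of 35.44, 24.2 and 24.26. Npc2, whose protein moves cholesterol out of lysosomes, and Isca2, for mitochondrial iron-sulfur cluster assembly, lie beside each other on chromosome 12, and both ends fell in a cluster with scores of 24.79, 22.45 and 26.19. All 3 peaks there were on the promoter list, at -380, 217 and 576 bp from the start of Isca2. Bloc1s2, whose promoter is printed above, had 34.96, 21.68 and 21.53, at 651, 84 and -332 bp from its start. At Isca2 and Bloc1s2 the cluster straddled the start, and at Bicd1 it followed the start.

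Of the other named genes, Nme2 and Pcyox1 also had peaks on both sides of the start. At Asb6 the 3 peaks, with scores of 25.59, 31.53 and 22.93, were centred at -135, -623 and -850 bp from the start (negative is upstream), and the first of them covers most of the printed window. Nme2 had 24.44 at 44 bp, 25.33 at -610 bp and 35.03 at -865 bp. At P4htm the scores were 26.36, 25.53 and 20.9, at -164, -729 and -1010 bp from the listed start. Loxl1, a lysyl oxidase relative that cross-links elastin in the extracellular matrix, had 28.91, 20.66 and 25.86 just outside its gene at chr9:58287723-58313212. Their centres lay 306, 506 and 763 bp beyond the end with the higher coordinate. All 3 peaks were on the promoter list, and no distance from a start was available for them. Pcyox1, a prenylcysteine oxidase gene, had 25.03, 29.13 and 20.52, at 588, 198 and -336 bp from the start. AI429214 had 35.83, 25.86 and 24.89, all inside a gene 1959 bp long.

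Inside genes, a clustered peak was found at 289 protein-coding genes (1.32%), where 55.2% had any γ-H2AX peak. Of these 277 were touched by 1 cluster, 9 by 2, 2 by 3 and 1 by 4. Cdk14, for a cyclin-dependent kinase of the membrane that acts in Wnt signalling, had 4 clusters with 7 clustered peaks over 577 kb and scores of 20.1 to 31.73. Rbms3, an RNA-binding protein gene of 1057 kb, had 3 clusters with 9 peaks, and Bnc2, a zinc finger gene of 409 kb, had 3 clusters with 5 peaks. Atf6, a membrane-bound transcription factor of the unfolded protein response, had 2 clusters with 6 peaks in 164 kb. Phlpp1, a phosphatase gene whose product acts on Akt, had 2 clusters with 6 peaks in 222 kb, up to a score of 36.49. Lrrk1, a leucine-rich repeat kinase gene, had 2 clusters with 5 peaks in 130 kb. Long genes offer more room, and the clusters per Mb were 2.84 in Rbms3, 6.93 in Cdk14 and 15.4 in Lrrk1.

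Gene lists for fibroblasts, DNA damage, other pathways and gene families, and other cell types were set against the clusters. Of 1359 genes in 14 lists, 1110 of them olfactory receptor genes, 0 had a clustered peak at an end, where the share of all protein-coding genes is 0.274%, and 4 had one inside, where it is 1.32%. Most of the pool is thus olfactory receptor genes, which seldom held any γ-H2AX peak. The pooled counts therefore do not describe the other lists and show no depletion in them. In TGF-beta signalling it was 3 of 20 genes (15%, against 1.32% of all protein-coding genes), and 90% of that list had any γ-H2AX peak inside, against 55.2% of all. This is a small list, its genes were not matched to others for length, and no test was made. The count of 3 genes is therefore a description and shows no enrichment of the pathway. Tgfbr1, the type I receptor kinase, had 2 clusters with 5 clustered peaks in 61.7 kb, with scores of 32.22 and 21.81 near the start (1747 and 2682 bp downstream) and 31.83, 36.98 and 21.86 around 10 kb downstream. Smad3, which carries the receptor's signal to the nucleus, had 3 peaks with scores of 20.1, 22.25 and 22.4, and the last pair overlapped an ATM peak of score 20.2. Ltbp1, which holds latent TGF-beta in the matrix, had 2 separate clusters with 1 clustered peak each (21.68 and 24.08). Hoxc4 was the only member of 39 Hox genes, with 26.65, 24.43 and 20.66. The other 12 lists held 0 clustered peaks inside or at the ends of their genes. For DNA damage response this was 0 of 24 genes, although 20 of the 24 had some γ-H2AX peak inside, and for p53 targets 0 of 16. The lists for fibroblast and extracellular matrix (20 genes), immediate early (18), cell cycle (23), housekeeping (20), high mobility group (9), neuronal (16), blood cell (16), epithelial (15) and endothelial genes (13) were also at 0, as were 1110 olfactory receptor genes. With 1.32% of all protein-coding genes holding a clustered peak, counts of 0 in lists of 9 to 24 genes show no difference at this depth. Of the olfactory receptor genes 4.23% had any γ-H2AX peak inside.

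The clusters with most peaks, 6 described here of the 7 with 5 peaks, lay in varied surroundings. The highest summed score was at a run of tRNA genes on chromosome 1, n-TEctc7 to n-TGgcc14 (chr1:171079051-171082363), with scores of 33.95, 28.48, 26.88, 25.64 and 49.31 and widths of 273 to 546 bp. tRNA genes have near-identical copies elsewhere, so the origin of reads placed there is uncertain. In Swap70, whose protein binds actin filaments, all 5 peaks met the rule (chr7:110223078-110224854), with scores of 22.61, 20.38, 37.07, 26.19 and 23.58; its middle peak is the only member with 4 neighbours. A further cluster lay 92.2 kb from the nearest gene, the pseudogene Gm18487 (chr9:84290433-84293244), with scores of 20.52 to 29.06, and another 3.92 kb from Dguok, a mitochondrial deoxyguanosine kinase gene (chr6:83473897-83476298), with scores of 22.29 to 29.81. In Socs6, a suppressor of cytokine signalling gene, the cluster (chr18:88875891-88879402) had scores of 20.08 to 27.05. At P4htm it reached from the promoter window printed above to chr9:108600003, with scores of 20.9 to 26.36.

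**Figure D4:**
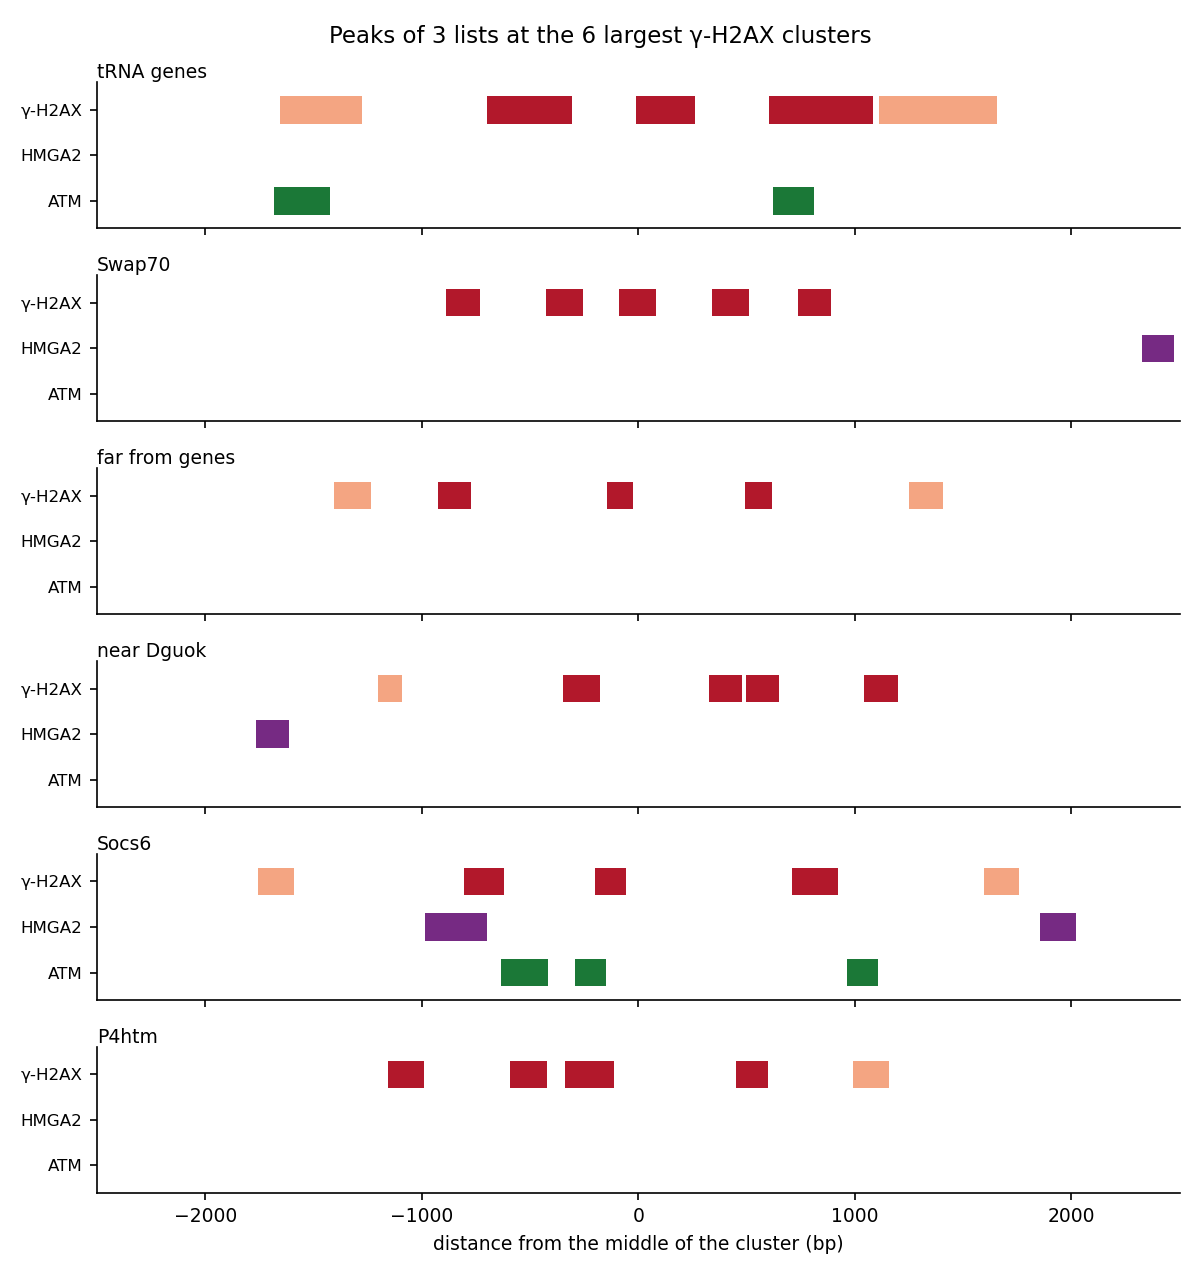
Peaks of γ-H2AX, HMGA2 and ATM within 2500 bp of the middle of the 6 clusters, drawn to scale against distance in bp. Dark red bars are clustered γ-H2AX peaks, light bars flanking γ-H2AX peaks, purple HMGA2 and green ATM; ATM peaks touch the clusters at the tRNA genes (2 peaks) and in Socs6 (3 peaks), and HMGA2 touches the one in Socs6 (1 peak).

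The share of clustered peaks that overlapped HMGA2 was within counting error of that of other peaks. By at least 1 bp, 37 clustered peaks overlapped an HMGA2 peak, or 3.71% (2.70 to 5.07), against 3.25% (3.16 to 3.35) of other peaks and 3.84% of peaks with 1 neighbour. The difference from all other peaks was 0.45 points (-0.56 to 1.82), an interval that covers both directions. The difference was larger when every peak was set to 500 bp around its centre, at 2.29 points (0.54 to 4.35), and with centres within 2 kb, at 0.84 points (0.24 to 1.52). On 8 of 19 autosomes the clustered share was higher. The 37 peaks lay in 34 clusters. Of the 37 peaks, 27 were inside a gene (73.0%, against 67.4% of all clustered peaks). At a gene end were 0 of the 37, against 11.7% of all clustered peaks, a difference that was not tested. Their HMGA2 partners scored 20.1 to 36.62 with a median of 22.93. Within 1 kb, an HMGA2 centre was found for 18.7% (16.4 to 21.3) of clustered and 14.5% (14.3 to 14.7) of other peaks. It was 16.8% for peaks with 1 neighbour. By this wider measure the clustered share was above that of other peaks, though 1 HMGA2 centre can count for several peaks of a cluster.

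ATM peaks overlapped clustered peaks more often. There were 44 overlaps, or 4.41% (3.30 to 5.87), against 2.67% (2.58 to 2.76) of other peaks, 3.10% (2.81 to 3.42) of peaks with 1 neighbour and 2.58% of peaks with none. The difference was 1.74 points (0.63 to 3.20), and against other peaks 2 to 50 kb away, at 2.41%, it was 2.00 points (0.76 to 3.52). On 12 of 19 autosomes the clustered share was higher. The 44 peaks lay in 41 clusters. Of the 44 peaks, 27 were in a gene (61.4%, against 67.4% of all clustered peaks) and 3 at a gene end, where 11.7% of all clustered peaks lay. Their ATM partners scored 20.1 to 43.18 with a median of 23.9. Within 1 kb, an ATM centre was found for 18.1% (15.9 to 20.6) of clustered, 11.2% (11.1 to 11.4) of other peaks and 13.3% of peaks with 1 neighbour. Among peaks of score 25 or more in every list, 1.64% of 61 clustered and 1.24% of other peaks overlapped ATM, a difference of 0.40 points (-0.95 to 7.48). The interval also covered 0 when at least 50% of the γ-H2AX peak had to be covered, at 0.68 points (-0.063 to 1.80), and with centres within 500 bp, at 0.91 points (-1.02 to 4.94).

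**Figure D5:**
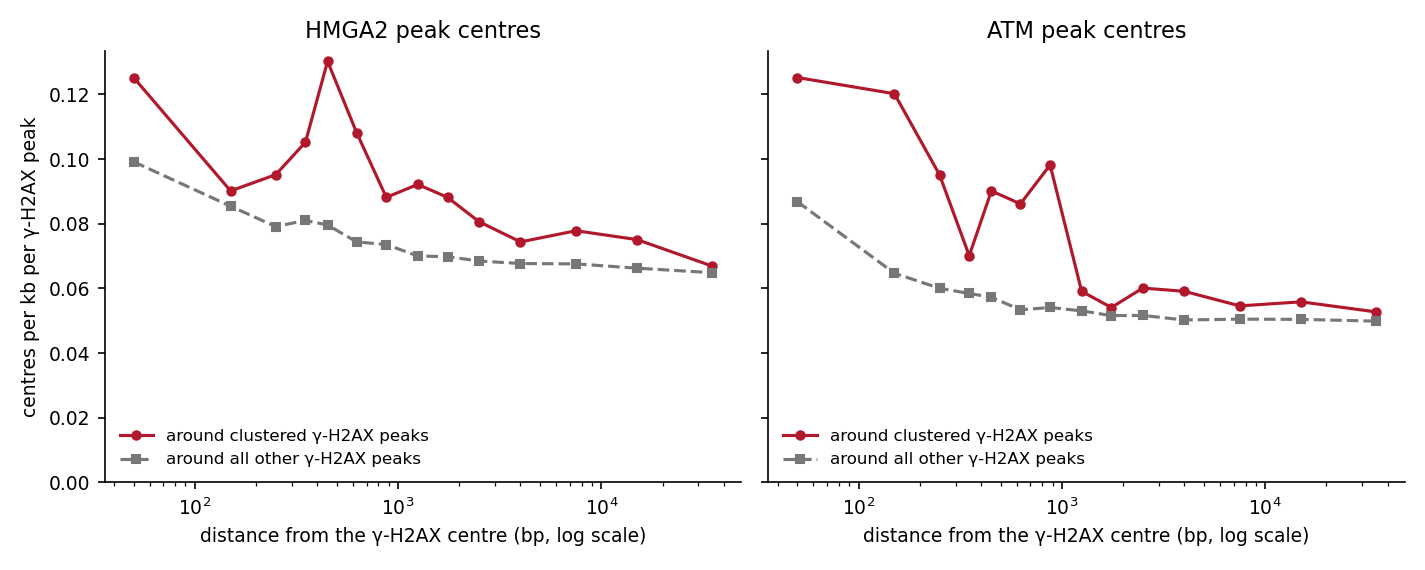
Density of HMGA2 (left) and ATM (right) peak centres, per kb and γ-H2AX peak, against distance from the γ-H2AX centre on a log scale, for clustered (circles) and all other γ-H2AX peaks (squares). Around clustered peaks both are at 0.125 within 100 bp, and around other peaks HMGA2 is at 0.099 and ATM at 0.087; a partner near a cluster is counted once for each of its clustered peaks.

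Overlap with both was rare. HMGA2 and ATM peaks met at 3 clustered peaks (0.301%, 0.102 to 0.880), against 192 other peaks (0.155%). The first lay 8.32 kb from the pseudogene Gm18289 (chr6:4562381-4562559), with scores of 24.57 (γ-H2AX), 22.93 (HMGA2) and 22.09 (ATM). In Peak1, for a pseudokinase of the cytoskeleton, the peak at chr9:56231432-56231582 had 23.75, 20.52 and 26.21 for the same antibodies, and a flanking γ-H2AX peak overlapped a further ATM peak of score 43.02. In Socs6 the peak at chr18:88876843-88877026 had 20.08, 32.75 and 20.9. Over whole cluster spans, 79 of 518 clusters touched an HMGA2 peak (15.3%), 74 an ATM peak (14.3%), 15 both and 380 neither. Spans had a median of 1320.5 bp and other γ-H2AX peaks a median width of 168 bp. The shares of clusters therefore cannot be set beside those of single peaks, and no other stretches of like length were counted.

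Clusters outside genes were a minority, as were single peaks outside genes (32.6% of clustered and 45.8% of other peaks). Of 518 clusters 355 touched a gene and 163 did not, and those lay a median of 11.9 kb from the nearest gene, 8 of them over 100 kb away. The farthest was 263 kb from the long non-coding RNA gene A430085M09Rik. A gene-end window was touched by 92 clusters, and 44 held a peak of the promoter list. A whole cluster touches such places more easily than a single peak. No other stretches of like length were counted, so these cluster counts and distances are a description only.

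Just inside the limit of 1 kb, for 206 peaks whose 2nd nearest centre lay at 900 to 1000 bp, 69.4% were in a gene, 14.1% at a gene end, 5.34% (11 peaks, 3.01 to 9.31) on HMGA2 and 4.85% (10 peaks, 2.66 to 8.70) on ATM peaks. Just outside it, for 230 peaks with that centre at over 1000 to 1100 bp, 70.4% were in a gene, 13.0% at a gene end, 1.74% (4 peaks, 0.678 to 4.39) on HMGA2 and 3.48% (8 peaks, 1.77 to 6.71) on ATM peaks, and the intervals overlap.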

How the data were processed

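Peak lists of 3 wild-type ChIP-seq libraries (H2AXS139ph, HMGA2, ATM) were used, 1 library per antibody and genotype. Per the labels, the authors called peaks with MACS14 without its model, at a p of 0.01 and a shift size of 30 bp. The build was mm10, and HOMER, SAMtools, Bowtie2 and Trimmomatic were used in unstated versions, per the submitters' processing notes. The control used for peak calling is not given in the sources used here. The deposited value per peak is a score, equal to -10 × log10(p), used only within its own list to order, describe or filter peaks. The promoter lists the authors deposited are of unit other, regions with start and end only; their starts count from 1 and were shifted to match the peaks.

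Peaks were placed on RefSeq genes of GRCm38.p6 (the assembly of mm10; 21887 protein-coding genes on the chromosomes, without strand), and start sites came from the RefSeq promoter table. Neighbours, overlaps of at least 1 bp, gene-end windows of 1 kb and shares with 95% Wilson intervals (differences by Newcombe's method) were computed with Python 3.11.15, numpy 2.4.6 and pandas 2.3.3. The code was tested on simulated lists, and its overlap counts against bedtools 2.31.1. No test of chance was made. Genes at ends were named by number of clustered peaks and then summed score (12 genes); 6 clusters by number of peaks and then summed score; 6 genes by number of clusters, then of clustered peaks; and every clustered peak on both HMGA2 and ATM. Members and lists were chosen with earlier results of these data known. Alternatives changed the score threshold, distance, neighbour number, comparison peaks, interval width, overlap and gene windows. Exons, introns and knockout libraries were not analysed here.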

Additional observations from a re-analysis of the deposited data

How the results depend on the processing

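Of 70 recomputed values, 44 stayed within the 95% interval of the reported difference (or within 1.5 times the reported count), 16 moved beyond it and 10 changed sign; differences are clustered minus other peaks in percentage points. The number of clustered peaks was 61 with scores of 25 or more, 3 with scores of 30 or more, 167 with centres within 500 bp, 3812 within 2 kb and 57 with 3 or more neighbours. With scores of 25 or more the differences were -0.82 (gene body), 0.40 (ATM) and -0.40 (promoter list). With scores of 30 or more, over 3 clustered peaks, they were -22.7 (gene body), 24.45 (gene end), 32.6 (HMGA2), -0.92 (ATM) and -2.36 (promoter list). Within 500 bp they were 18.2 (gene body) and 5.42 (promoter list). With 3 or more neighbours they were -1.69 (gene body), -4.29 (gene end), -1.50 (HMGA2) and -0.022 (promoter list). Against peaks with exactly 1 neighbour they were 8.004 (gene body) and -0.15 (HMGA2), and against peaks 2 to 50 kb away 2.00 (gene body) and 2.07 (gene end). With 500 bp intervals they were 2.29 (HMGA2) and 3.25 (ATM), and at gene ends within 5 kb 10.8. Higher score limits left few clustered peaks; the cause of the other changes was not tested. The ATM difference was above 0 in 12 of its 13 alternatives, but its interval covered 0 with both score limits, with 3 or more neighbours (0.83, -1.71 to 9.24), with an overlap of at least 50% (0.68, -0.063 to 1.80) and within 500 bp (0.91, -1.02 to 4.94). No paired analysis was possible because each antibody had 1 library. Without replicates or depth, these differences describe single libraries.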

Other observations

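The 5 clustered peaks with the highest scores, chosen after their values were seen, had 72.22 in Celf1, which encodes a regulator of RNA splicing, 67.21 at 3.72 kb from Mir688, 64.09 at 14.4 kb from Gm11581, 61.58 in Ltbp2, a relative of Ltbp1 in elastic fibres, and 56.03 at 3.45 kb from 9330188P03Rik. Cdc20, the activator of the anaphase-promoting complex, had 4 clustered peaks in a gene of 4.44 kb, with scores of 20.1 to 40.5, and was likewise picked after its values were seen. Among the 60 protein-coding genes with a clustered peak at an end were histone genes, with 1 clustered peak each: H4c3 at 23.51, and H2bc18 and H3c13, which share a peak of score 27.77. Histone genes have near-identical copies, so reads there are uncertain.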
